A study of Mus musculus with 19 samples.

Results

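OT-I cells recovered at day 115 after transfer into irradiated B6 hosts were compared with OT-I cells from unirradiated B6 hosts, on 3 arrays against 4 of the 19 in the series. The members were the samples that the labels place at day 115 in irradiated hosts and in unirradiated hosts. OT-I cells are CD8 T cells that carry a transgenic receptor for an ovalbumin peptide, and B6 is a common inbred mouse strain. RNA came from cells of lymph node and spleen, sorted at day 115 from the irradiated hosts and at day 6 from the unirradiated hosts. The series also holds 8 arrays of irradiated hosts titled day 5, whose descriptions give day 6 as the day of sorting, and 4 of irradiated hosts at day 40. No unirradiated group of day 115 is among the samples used here, so the irradiated host and the time after transfer cannot be told apart. The labels state neither separate animals, nor pooling, nor the sort gate, nor the cells that the irradiated hosts still had. The p-values therefore measure only the spread between samples, which may be technical. The labels of these 7 arrays name CD8 T cells, and the co-receptor gene Cd8a was at 2079 ± 188 at day 115 and 2533 ± 249.9 in unirradiated hosts (SD, n = 3 and 4).

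Irradiation removes most lymphocytes of a host. T cells transferred into such a host divide without cognate antigen, driven by the cytokine IL-7 and by weak signals from self peptides, which is called homeostatic proliferation. CD8 T cells that have done so are known to take on features of memory cells, such as receptors for inflammatory chemokines and stored cytotoxic molecules, while naive cells in a full host mostly rest.

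The signal is the deposited linear intensity of a probe set, and differences are day 115 minus unirradiated on the scale of log2(signal + 16), given ± SE. The largest split among the arrays runs along this comparison. The 19 arrays formed 2 clusters by their correlation over all tested probe sets. All 3 day-115 arrays lay in cluster 1 and all 4 unirradiated arrays in cluster 2, while the day-5 arrays fell into both, arrays 1 to 3 in cluster 1 and arrays 4 to 8 in cluster 2, as did the day-40 arrays with 2 in each. The median correlation was 0.852 between day-115 and unirradiated arrays, 0.944 between day-115 arrays and the day-5 arrays of cluster 1, and 0.970 between unirradiated arrays and the day-5 arrays of cluster 2. Within day 115 it was 0.948 and within unirradiated hosts 0.980.

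Each value was therefore checked against the day-5 arrays. Among these alone, 4418 of 8695 probe sets (50.8%) differed between the clusters at an adjusted p under 0.05, the threshold for a change used throughout. With groups alone in the limma model, 2427 probe sets (27.9%) differed between day 115 and unirradiated hosts, and 2250 of them (92.7%) had the sign of the cluster shift in the day-5 arrays. With the array cluster as a term, whose size comes from the day-5 and day-40 arrays, 384 probe sets differed (4.42%), 274 of them higher at day 115 (3.15%) and 110 lower (1.27%). Of these, 202 (52.6%) had the sign of the cluster shift. Both models called 274 probe sets in the same direction. By gene, 1022 of 6409 rose (15.9%) and 813 fell (12.7%) on groups alone. With the cluster term, 209 rose (3.26%) and 74 fell (1.15%), and 157 rose (2.45%) and 48 fell (0.749%) in both models. All 3 day-115 arrays were above all 4 unirradiated arrays for 22.6% of genes and below them for 21.1%, so groups that do not overlap are common here. All 205 genes called in both models had no overlap. For them, no overlap is therefore no further support. Below, "rose" and "fell" refer to the model with the cluster term. Where the value on groups alone is given beside such a change with no p of its own, it passed there too.

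**Figure D1:**
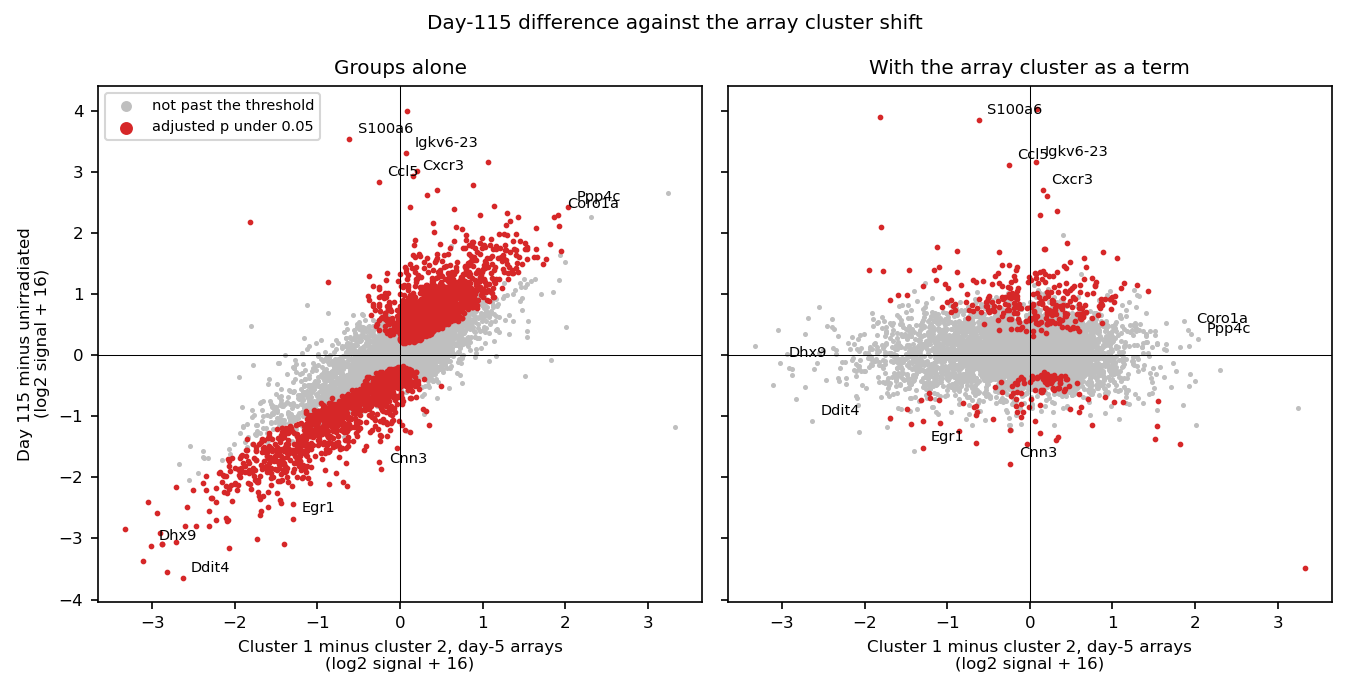
Difference of day 115 minus unirradiated hosts (vertical, log2 signal + 16) against the shift of cluster 1 minus cluster 2 among the day-5 arrays (horizontal, same scale), one point per tested probe set, with groups alone on the left and the array cluster as a term on the right; red points have an adjusted p under 0.05. Across probe sets r was 0.81 on groups alone and -0.05 with the cluster term, and S100a6, Ccl5 and Cxcr3 lie far above the axis in both panels, at cluster shifts of -0.61, -0.26 and 0.16.

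The term assumes that the cluster shift is the same in every group. The day-5 and day-40 arrays did not differ in their shift at the threshold in any probe set by limma (0.0% called, smallest adjusted p = 0.621), and 609 probe sets (7.00%) had an unadjusted p under 0.05. With the shift taken from the day-5 arrays only, 234 probe sets were called, 192 of them shared with the 384, and from the day-40 arrays only 57, of which 46 were shared. The count was 625 without day-115 array 3, 244 without unirradiated array 1, 180 without unirradiated array 3 and 213 without unirradiated array 4. A comparison that does not cross the clusters was also made, day 115 against the 3 day-5 arrays of cluster 1, in which 816 of 6409 genes differed (12.7%), 419 higher (6.54%) and 397 lower (6.19%) at day 115. Of the 157 genes that rose in both models, 126 were also higher than at day 5 in that comparison, and of the 48 that fell, 25 were also lower. Both comparisons use the same day-115 arrays, and the day-5 arrays help set the cluster term. Some overlap is therefore built in, and these counts are no independent check.

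Genes of memory CD8 T cells were the list with the most rises. Of 30 tested members, 13 rose and 1 fell, beside 3.26% and 1.15% of all genes, and 16 did not pass the test. The median difference of the list was 0.54, against -0.04 over all genes. Of the 13 rises, 10 also passed on groups alone. Against the day-5 arrays of cluster 1, 13 members were higher and 0 lower, beside 6.54% and 6.19% of all genes. The rises comprised the chemokine receptors Cxcr3 and Ccr2, the chemokine Ccl5, the interleukin-18 receptor chains Il18r1 and Il18rap, the death ligand Fasl, the tumour necrosis factor receptor Tnfrsf1b, the calcium-binding and membrane-linked proteins S100a6, Anxa2 and Ahnak, the lectin Lgals1, the integrin chain Itgb1 and the cytokine signalling inhibitor Socs2. In bulk RNA, more cells of a type and more RNA per cell cannot be told apart.

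S100a6, a calcium-binding protein gene, had the largest rise among the named genes. Its signal was 657, 846 and 944 in the day-115 arrays, against 50.6, 80.8, 32.9 and 63.5 in the unirradiated arrays, a fold of 14.3 between the means with no overlap. The difference was 3.85 ± 0.39 (adjusted p = 2.54e-05), and 3.54 ± 0.33 (adjusted p = 2.42e-06) on groups alone. Most of it was already there at day 5, with 367, 189 and 673 in the cluster 1 arrays of day 5 and 512 to 633 in those of cluster 2. Within cluster 2, day 5 was above unirradiated hosts by 3.03 ± 0.26 (adjusted p = 2.44e-06), and within cluster 1 day 115 was above day 5 by 1.12 ± 0.31 (adjusted p = 0.0259).

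Cxcr3, a chemokine receptor that guides effector and memory T cells to inflamed tissue, stood at 1159, 1506 and 1307 in the day-115 arrays, against 140.3, 151, 159 and 191 in the unirradiated arrays. All day-115 arrays were far above all unirradiated arrays. The difference was 2.70 ± 0.30 (adjusted p = 3.92e-05), or 2.93 (adjusted p = 1.41e-06) on groups alone. Day 5 lay between the 2 groups, at 348, 699 and 789.98 in the cluster 1 arrays of day 5 and 373 to 679 in those of cluster 2. Both within-cluster steps passed the test, by 1.60 (adjusted p = 0.000423) from unirradiated hosts to day 5 and by 1.17 (adjusted p = 0.00784) from day 5 to day 115.

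Ccl5, a chemokine that memory CD8 T cells hold as stored message and protein, showed another order. Its signal was 1859.6, 2157 and 2311 in the day-115 arrays, against 181, 359.6, 172 and 551 in the unirradiated arrays. The unirradiated arrays were spread widely, yet the lowest day-115 array was above the highest of them by more than the whole unirradiated range. Day 5 covered the unirradiated range, at 166, 249.6 and 612 in the cluster 1 arrays of day 5 and 141 to 654 in those of cluster 2. The difference was 3.11 ± 0.56 (adjusted p = 0.00397), and 2.83 (adjusted p = 0.00092) on groups alone. Against day 5 within cluster 1 it was 2.76 (adjusted p = 0.0025), whereas day 5 against unirradiated hosts within cluster 2 gave 0.32 (adjusted p = 0.898).

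Fasl, which triggers death in cells that carry Fas, was at 91.8, 95.4 and 99.2 in the day-115 arrays, against 25.4, 27.9, 31.5 and 30.1 in the unirradiated arrays. The 3 day-115 values were close together, and the day-5 arrays stood at 22.96, 28.9 and 39.3 in the cluster 1 arrays of day 5 and 25.1 to 28.9 in those of cluster 2. The difference was 1.19 ± 0.13 (adjusted p = 3.92e-05), or 1.32 (adjusted p = 1.14e-06) on groups alone, and 1.28 (adjusted p = 4.8e-06) against day 5 of cluster 1. Tnfrsf1b, a receptor for tumour necrosis factor, was at 263, 347 and 232 in the day-115 arrays, against 97.8, 109, 75.9 and 85.1 in the unirradiated arrays. Its difference was 1.35 ± 0.18 (adjusted p = 0.000213, against 1.45 on groups alone), and 1.33 (adjusted p = 6.31e-05) against day 5.

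Il18r1 and Il18rap encode the 2 chains of the receptor for interleukin-18, which lets memory CD8 T cells release interferon gamma without antigen. Il18r1 was at 403, 309 and 360.2 in the day-115 arrays, against 158, 146, 88.9 and 166 in the unirradiated arrays. Il18rap was at 209, 230.2 and 184 in the day-115 arrays, against 60.6, 64.8, 64.3 and 65.5 in the unirradiated arrays. Neither gene overlapped between the groups, as the choice of genes required. The differences were 1.69 ± 0.23 (adjusted p = 0.000307) for Il18r1 and 1.16 ± 0.18 (adjusted p = 0.00132) for Il18rap. On groups alone they were 1.29 (adjusted p = 0.00134) and 1.48 (adjusted p = 4.37e-05), and both genes were higher than in the day-5 arrays of cluster 1, by 1.28 (adjusted p = 0.00107) and 0.95 (adjusted p = 0.00148). Within cluster 2, day 5 differed from unirradiated hosts by 0.38 (adjusted p = 0.359) for Il18r1 and 0.18 (adjusted p = 0.704) for Il18rap.

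S100a6, Cxcr3, Il18r1, Fasl, Tnfrsf1b and Il18rap were the 6 memory genes that passed under every alternative, among those on which the alternatives were run, and the 250 bases before the RefSeq start site (GRCm38.p6) are printed for the 5 of them with a single start in the table. They show what lies before 5 of the genes that rose, read 5′ to 3′ on the strand of the gene. Capitals mark the core letters of motifs bound by factors that direct CD8 effector and memory genes, GGTGTG for T-box factors and TGTGGT for Runx factors, on either strand. The window of S100a6 is chr3:90612644-90612893 (plus strand), of Cxcr3 chrX:101734148-101734397 (minus strand), of Fasl chr1:161788496-161788745 (minus strand), of Tnfrsf1b chr4:145246871-145247120 (minus strand) and of Il18rap chr1:40515112-40515361 (plus strand).
S100a6: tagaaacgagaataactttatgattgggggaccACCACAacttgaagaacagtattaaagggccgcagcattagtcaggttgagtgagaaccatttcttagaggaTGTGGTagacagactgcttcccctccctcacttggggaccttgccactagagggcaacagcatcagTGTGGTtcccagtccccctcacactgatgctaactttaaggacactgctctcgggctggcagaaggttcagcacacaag
Cxcr3: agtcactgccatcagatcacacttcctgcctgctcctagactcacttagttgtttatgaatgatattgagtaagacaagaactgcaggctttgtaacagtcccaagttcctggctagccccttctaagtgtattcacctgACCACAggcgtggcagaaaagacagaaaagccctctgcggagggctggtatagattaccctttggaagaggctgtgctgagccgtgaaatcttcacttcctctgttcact
Fasl: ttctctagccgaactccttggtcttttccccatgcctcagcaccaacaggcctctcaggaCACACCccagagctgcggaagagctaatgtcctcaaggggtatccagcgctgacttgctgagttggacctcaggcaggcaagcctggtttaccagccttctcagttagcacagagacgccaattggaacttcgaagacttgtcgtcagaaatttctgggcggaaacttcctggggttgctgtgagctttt
Tnfrsf1b: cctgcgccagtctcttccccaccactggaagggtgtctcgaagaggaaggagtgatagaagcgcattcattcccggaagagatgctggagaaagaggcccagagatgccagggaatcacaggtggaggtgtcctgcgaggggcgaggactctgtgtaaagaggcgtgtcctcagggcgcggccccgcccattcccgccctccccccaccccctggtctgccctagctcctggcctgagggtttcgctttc
Il18rap: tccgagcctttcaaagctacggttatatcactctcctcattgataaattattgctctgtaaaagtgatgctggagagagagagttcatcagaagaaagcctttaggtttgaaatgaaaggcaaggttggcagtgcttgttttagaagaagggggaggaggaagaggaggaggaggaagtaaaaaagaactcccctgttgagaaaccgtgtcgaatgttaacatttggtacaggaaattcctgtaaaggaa
GGTGTG was in 1 of the 5 windows and in 16.28% of 32817 windows of that length, and TGTGGT in 2 of the 5 and in 14.04%. The letters are a description of the sequence and no measure of binding.

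**Figure D2:**
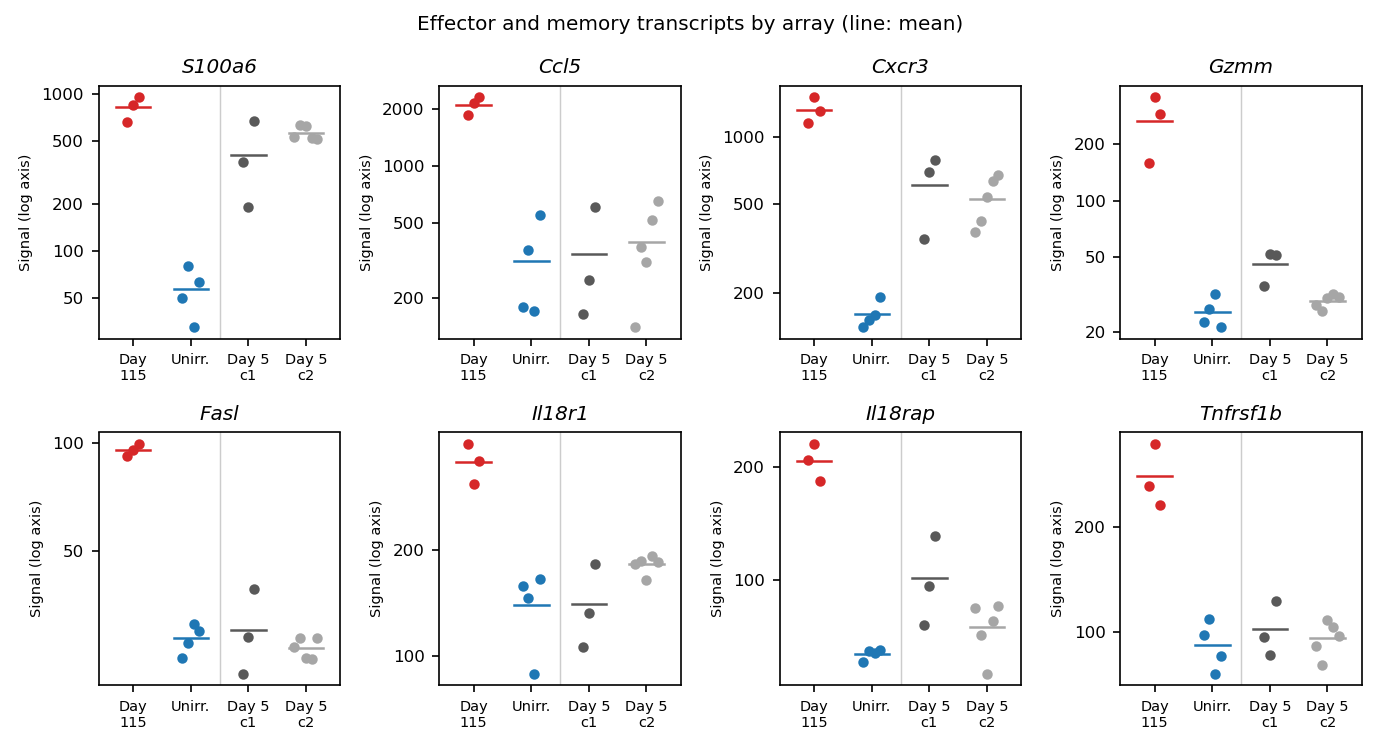
Signal (log axis) of 8 effector and memory transcripts in each array: day 115 (red), unirradiated hosts (Unirr., blue), and to the right of the line the day-5 arrays of cluster 1 (c1, dark grey) and cluster 2 (c2, light grey), with a line at each mean. The day-115 arrays are above every unirradiated array for all 8 genes, as the choice of genes required. S100a6 and Cxcr3 are also raised at day 5, while Ccl5 and Tnfrsf1b at day 5 lie near the unirradiated values.

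Ccr2, a receptor for monocyte chemoattractant chemokines, was at 124, 78.3 and 114 in the day-115 arrays, against 30.02, 26.5, 34.8 and 34.3 in the unirradiated arrays, a difference of 1.45 ± 0.26 (adjusted p = 0.00397, against 1.34 on groups alone) and of 1.06 (adjusted p = 0.0073) against day 5 of cluster 1. Lgals1, a galactose-binding lectin, was at 1458, 1719 and 1691 in the day-115 arrays, against 122, 332, 138 and 135 in the unirradiated arrays. Its difference was 1.59 (adjusted p = 0.0471) with the term and 3.16 (adjusted p = 0.00196) on groups alone, with a cluster shift of 1.06 (adjusted p = 0.008) among the day-5 arrays. The call of Lgals1 was lost without array 1, 2 or 3 of day 115 or array 1, 3 or 4 of the unirradiated hosts (adjusted p up to 0.102, log2 difference 1.45 to 1.89). With the shift taken from the day-40 arrays only, Lgals1 differed by 0.62 (adjusted p = 0.649) and Ccr2 by 1.35 (adjusted p = 0.0946). Anxa2, a phospholipid-binding protein, was at 524 ± 109 at day 115 and 161 ± 38.6 in unirradiated hosts and rose by 1.33 (adjusted p = 0.0256, against 1.61 on groups alone).

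Itgb1, Ahnak and Socs2 passed with the cluster term but not on groups alone. Itgb1, the beta-1 integrin chain, had means of 1668 ± 543 at day 115 and 919 ± 221 in unirradiated hosts, and differed by 1.77 (adjusted p = 0.00289) with the cluster term, against 0.82 (adjusted p = 0.111) on groups alone. Ahnak, a large scaffold protein of the cell cortex, had 1533 ± 536 at day 115 and 1638 ± 193 in unirradiated hosts. Its difference was 1.37 (adjusted p = 0.0234) with the term and -0.16 (adjusted p = 0.855) on groups alone. Socs2 had 32.8 ± 4.97 at day 115 and 30.5 ± 2.605 in unirradiated hosts. Its difference was 0.51 (adjusted p = 0.0363) with the term and 0.07 (adjusted p = 0.796) on groups alone. The direction of Ahnak turned without the term. Itga4, the integrin alpha-4 chain, was the member that fell. It was at 20.7, 17.6 and 18.4 in the day-115 arrays, against 49.5, 49.6, 39.3 and 47.97 in the unirradiated arrays. These day-115 values lay under the filter level of 26.4. Itga4 passed the filter on the mean of all arrays only through the unirradiated arrays. Its place among the tested members is therefore no support separate from its high values there. Its difference was -0.52 ± 0.12 (adjusted p = 0.0218, against -0.84 on groups alone), and day 5 of cluster 1 was as low as day 115 (24.2, 19.9 and 21.4). With the shift from the day-5 arrays only, Itga4 differed by -0.42 (adjusted p = 0.0622).

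Of 18 tested cytotoxic effector genes, 5 rose and 0 fell, beside 3.26% and 1.15% of all genes, with a median difference of 0.27. The rises were Ccl5 and Fasl, which are in the memory list too, and Gzmm, Ctla2b and Ctsd. Gzmm, a granule protease of killer cells, was at 159, 352 and 287 in the day-115 arrays, against 22.7, 26.4, 31.9 and 21.3 in the unirradiated arrays. In the unirradiated arrays it lay near the filter level of 26.4, so the size of the log2 difference depends on the added constant. It differed by 1.84 ± 0.34 (adjusted p = 0.00491), by 2.70 (adjusted p = 0.000208) on groups alone and by 2.13 (adjusted p = 5.14e-05) against day 5 of cluster 1, but by 1.07 (adjusted p = 0.35) with the shift from the day-40 arrays only.

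The granule genes best known from acute effector cells gave other values. Gzmb was at 91.1 ± 9.06 at day 115 and 76.2 ± 13.6 in unirradiated hosts, a difference of 0.04 (adjusted p = 0.973). Gzma was at 52.1 ± 6.59 at day 115 and 48.2 ± 5.08 in unirradiated hosts, a difference of -0.22 (adjusted p = 0.567), and neither granzyme passed the test in either model. Perforin (Prf1), which makes pores in target cells, was at 181, 143 and 181 in the day-115 arrays, against 89.6, 103, 109 and 109 in the unirradiated arrays. Every day-115 array of Prf1 was above every unirradiated array. The difference was 0.63 (adjusted p = 0.00959) on groups alone and 0.50 (adjusted p = 0.132) with the cluster term. Ctsd, a lysosomal protease, was at 1401, 1958 and 1151 in the day-115 arrays, against 358, 386, 296 and 318 in the unirradiated arrays. Its difference was 1.26 (adjusted p = 0.00646, against 2.07 on groups alone) and 0.85 (adjusted p = 0.0138) against day 5. With the shift from the day-40 arrays only, Ctsd differed by 1.16 (adjusted p = 0.218). Ctla2b, a cysteine protease inhibitor of activated T cells, was at 114, 78.4 and 173 in the day-115 arrays, against 20.8, 60.7, 18.5 and 19.4 in the unirradiated arrays. Its difference was 1.30 (adjusted p = 0.0402, against 1.62 on groups alone). That call was lost without array 1 or 3 of day 115 or array 1, 3 or 4 of the unirradiated hosts (adjusted p up to 0.0909, log2 difference 1.04 to 1.58).

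Cytokine receptors and their signalling genes gave 5 rises and 0 falls among 28 tested members, beside 3.26% and 1.15% of all genes, with a median difference of 0.22. Beside Il18r1, Il18rap, Tnfrsf1b and Socs2, the fifth was Il4ra, the chain that binds interleukin-4. Il4ra was at 760.3, 804 and 646 in the day-115 arrays, against 202, 211, 147 and 149 in the unirradiated arrays. The groups did not overlap, as the choice of genes required. The difference was 1.15 ± 0.19 (adjusted p = 0.00233) with the term and 1.97 (adjusted p = 0.000462) on groups alone. It was 0.96 (adjusted p = 0.0022) against day 5 of cluster 1 and 1.09 (adjusted p = 0.141) with the shift from the day-40 arrays only. Another, dimmer tested probe set of Il4ra gave 38.6 ± 6.65 at day 115 and 44.7 ± 6.55 in unirradiated hosts, with no call (adjusted p = 0.986).

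The receptors for the cytokines that drive homeostatic proliferation did not pass the test with the cluster term. Il7r, the interleukin-7 receptor chain, was at 1772, 759 and 1452 in the day-115 arrays, against 1589, 1511, 1632 and 2369 in the unirradiated arrays. The groups overlapped and the difference was 0.00 (adjusted p = 1). Day 5 of cluster 1 was lower, at 561, 659 and 744, and day 115 exceeded it by 0.93 (adjusted p = 0.0399), while day 5 of cluster 2 was below unirradiated hosts, with -1.03 (adjusted p = 0.0298). Il2rb, the chain shared by the receptors for interleukin-2 and interleukin-15 and a mark of memory CD8 T cells, was at 73.9, 59.04 and 64.6 in the day-115 arrays, against 39.6, 38.6, 40.95 and 43.9 in the unirradiated arrays. Every day-115 array of Il2rb was higher, with 0.52 (adjusted p = 0.0279) on groups alone and 0.22 (adjusted p = 0.471) with the term.

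Among 25 chemokine receptor, integrin and adhesion genes, 3 rose (Cxcr3, Ccr2 and Itgb1) and 3 fell (Itgae, Itgav and Itga4), beside 3.26% and 1.15% of all genes, with a median of -0.17 with the term and 0.20 on groups alone. As given above, Itga4 passed the filter only through the unirradiated arrays. Itgae, the CD103 chain that binds E-cadherin on epithelium and is carried by naive CD8 T cells in mouse lymphoid organs, was at 19.3, 25.2 and 23.8 in the day-115 arrays, against 58.3, 76.5, 71.95 and 73.97 in the unirradiated arrays. The day-115 values lay under the filter level and did not overlap with the others. The difference was -1.34 ± 0.16 (adjusted p = 5.55e-05), and -1.15 (adjusted p = 4.37e-05) on groups alone. Day 5 was intermediate, at 42.4, 52.1 and 69.1 in the cluster 1 arrays of day 5 and 34.2 to 45.7 in those of cluster 2, and day 115 was below day 5 of cluster 1, with -0.85 (adjusted p = 0.000322). Itgav was at 195, 163 and 139.8 in the day-115 arrays, against 221, 362, 316 and 341 in the unirradiated arrays. Its difference was -0.71 (adjusted p = 0.0441, against -0.83 on groups alone). Another tested probe set of Itgav gave -0.34 with the term (adjusted p = 0.357). The call of Itgav was lost without array 2 or 3 of day 115 or array 2, 3 or 4 of the unirradiated hosts (adjusted p up to 0.0925, log2 difference -0.86 to -0.61).

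Ccr7, the receptor that leads naive and central memory T cells into lymph nodes, was at 141, 222 and 144 in the day-115 arrays, against 82.6, 107, 116 and 104 in the unirradiated arrays. The day-115 arrays were all higher, but the difference was 0.63 (adjusted p = 0.188) on groups alone and -0.26 (adjusted p = 0.613) with the term, and day 5 differed between the clusters by 0.97 (adjusted p = 0.00224). Its direction at day 115 thus turned with the model, and Ccr7 was called in neither.

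Genes linked to the naive and resting state gave 6 falls and 1 rise among 28 tested members, beside 1.15% and 3.26% of all genes, with a median difference of -0.22. The falls were Cnn3, Tob1, Rflnb, Actn1, Nrip1 and Id3, and the rise was Nsg2. Cnn3, an actin-binding calponin, was at 37.1, 26.8 and 20.3 in the day-115 arrays, against 155, 187, 116 and 121 in the unirradiated arrays. The difference was -1.78 ± 0.21 (adjusted p = 5.55e-05), and -1.86 (adjusted p = 1.69e-06) on groups alone. Day 5 was already as low, at 30.9, 25.9 and 20.3 in the cluster 1 arrays of day 5 and 25.9 to 45.5 in those of cluster 2, so that day 115 minus day 5 within cluster 1 was 0.07 (adjusted p = 0.81).

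Rflnb, a filamin-binding protein gene, was at 419, 502 and 367 in the day-115 arrays, against 1145, 1355, 1277 and 1371 in the unirradiated arrays. Its difference was -1.05 ± 0.17 (adjusted p = 0.00201, against -1.56 on groups alone). It stood near its day-115 value at day 5, with -0.07 (adjusted p = 0.774) between the 2 days. Rflnb differed by -0.93 (adjusted p = 0.147) with the shift from the day-40 arrays only. Nrip1, a corepressor of nuclear receptors, was at 77.2, 90.5 and 97.4 in the day-115 arrays, against 232, 247, 253 and 311 in the unirradiated arrays. Its difference was -0.93 (adjusted p = 0.0178, against -1.40 on groups alone) and 0.25 (adjusted p = 0.332) against day 5. Nrip1 differed by -0.77 (adjusted p = 0.0684) with the shift from the day-5 arrays only. Tob1, an inhibitor of T cell division, was at 41.1, 32.4 and 37.96 in the day-115 arrays, against 84.8, 133, 107 and 109 in the unirradiated arrays. Its difference was -1.07 (adjusted p = 0.0256, against -1.22 on groups alone), and day 115 was also below day 5 of cluster 1, with -0.85 (adjusted p = 0.0143). The call of Tob1 was lost without array 2 of day 115 or array 3 or 4 of the unirradiated hosts (adjusted p up to 0.0589, log2 difference -1.17 to -0.98).

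Actn1, an actin cross-linker, was at 517, 451 and 288 in the day-115 arrays, against 2742, 2575, 2493 and 2512 in the unirradiated arrays. The day-5 arrays, split by cluster, stood at 536, 739 and 584 in the cluster 1 arrays of day 5 and 1558 to 2586 in those of cluster 2. The difference was -2.62 (adjusted p = 0.00276) on groups alone and -1.03 (adjusted p = 0.0316) with the term. The call of Actn1 was lost without array 3 of day 115 or array 1, 3 or 4 of the unirradiated hosts (adjusted p up to 0.0652, log2 difference -1.19 to -0.79). Id3, an inhibitor of E-protein transcription factors, was at 179.6 ± 28.2 at day 115 and 154 ± 29.4 in unirradiated hosts. Its difference was 0.20 (adjusted p = 0.683) on groups alone and -0.77 (adjusted p = 0.0411) with the term. Its direction turned with the model. Id3 was the sole call among 24 tested transcription factors of CD8 T cell fate, with 0 rises, beside 1.15% of all genes that fell and 3.26% that rose, and a median of -0.23. Eomes, a T-box factor of memory CD8 T cells, was at 207, 159 and 168 in the day-115 arrays, against 126, 209, 201 and 207 in the unirradiated arrays. Its difference was 0.37 (adjusted p = 0.428). Id2, which promotes effector cells, was at 367, 208 and 432 in the day-115 arrays, against 163, 265, 144 and 116 in the unirradiated arrays. Its difference was 0.39 (adjusted p = 0.572). Nsg2, the rise, was at 354 ± 46.7 at day 115 and 314 ± 40.6 in unirradiated hosts. Its difference was 1.15 (adjusted p = 0.022) and 0.17 (adjusted p = 0.769) on groups alone.

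Genes that report signalling through the T cell receptor or respond at once to stimulation gave 5 falls and 0 rises among 25 tested members, beside 1.15% and 3.26% of all genes, with a median of -0.49 with the term and -0.003 on groups alone. The falls were Fos, Egr1, Dusp1, Zfp36l1 and Nfkbia, of which Egr1, Zfp36l1 and Nfkbia also passed on groups alone. Egr1, a transcription factor induced within minutes of receptor signalling, was at 102, 93.01 and 97.5 in the day-115 arrays, against 593, 781, 716 and 761 in the unirradiated arrays. The 2 groups were far apart, with -1.51 ± 0.24 (adjusted p = 0.00173) and -2.68 ± 0.40 (adjusted p = 0.000462) on groups alone. The day-5 arrays of cluster 1 were as low, at 116, 121 and 112, and those of cluster 2 lay at 191 to 406. Within cluster 2, day 5 was below unirradiated hosts by a log2 difference of -1.15 (adjusted p = 0.000873), and day 115 against day 5 of cluster 1 gave -0.22 (adjusted p = 0.486).

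Nfkbia, the inhibitor of NF-kappaB, was at 80.4, 50.2 and 58.6 in the day-115 arrays, against 394, 475, 397 and 361 in the unirradiated arrays. Its difference was -1.07 (adjusted p = 0.0066) and -2.43 (adjusted p = 0.00158) on groups alone. Another tested probe set of Nfkbia gave -0.75 with the term (adjusted p = 0.0497) but 0.55 on groups alone (adjusted p = 0.344). Zfp36l1, an RNA-binding protein that shortens the life of cytokine messages, was at 187, 119.6 and 115 in the day-115 arrays, against 652, 755, 544 and 633 in the unirradiated arrays. Its difference was -1.24 (adjusted p = 0.0124) and -2.10 (adjusted p = 0.0008) on groups alone. With the shift from the day-40 arrays only, Nfkbia differed by -0.96 (adjusted p = 0.125) and Zfp36l1 by -1.22 (adjusted p = 0.176). Fos and Dusp1, both induced by stress and stimulation, passed with the term and not on groups alone. Fos was at 14.7 ± 1.66 at day 115 and 57.8 ± 29.9 in unirradiated hosts. Its difference was -1.18 (adjusted p = 0.358) on groups alone and -3.49 (adjusted p = 0.0189) with the term, and its cluster shift at day 5 was 3.33. Dusp1 was at 25.99 ± 2.66 at day 115 and 37.4 ± 0.94 in unirradiated hosts. Its difference was -0.35 (adjusted p = 0.554) on groups alone and -1.37 (adjusted p = 0.0316) with the term. The day-115 means of Fos and Dusp1 lay under the filter level, where a signal has little room to fall. Signals that low may not show the cluster shift in full, yet the term takes it off in full. The sizes with the term therefore depend on that shift and are no measure of the fall in signal.

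**Figure D3:**
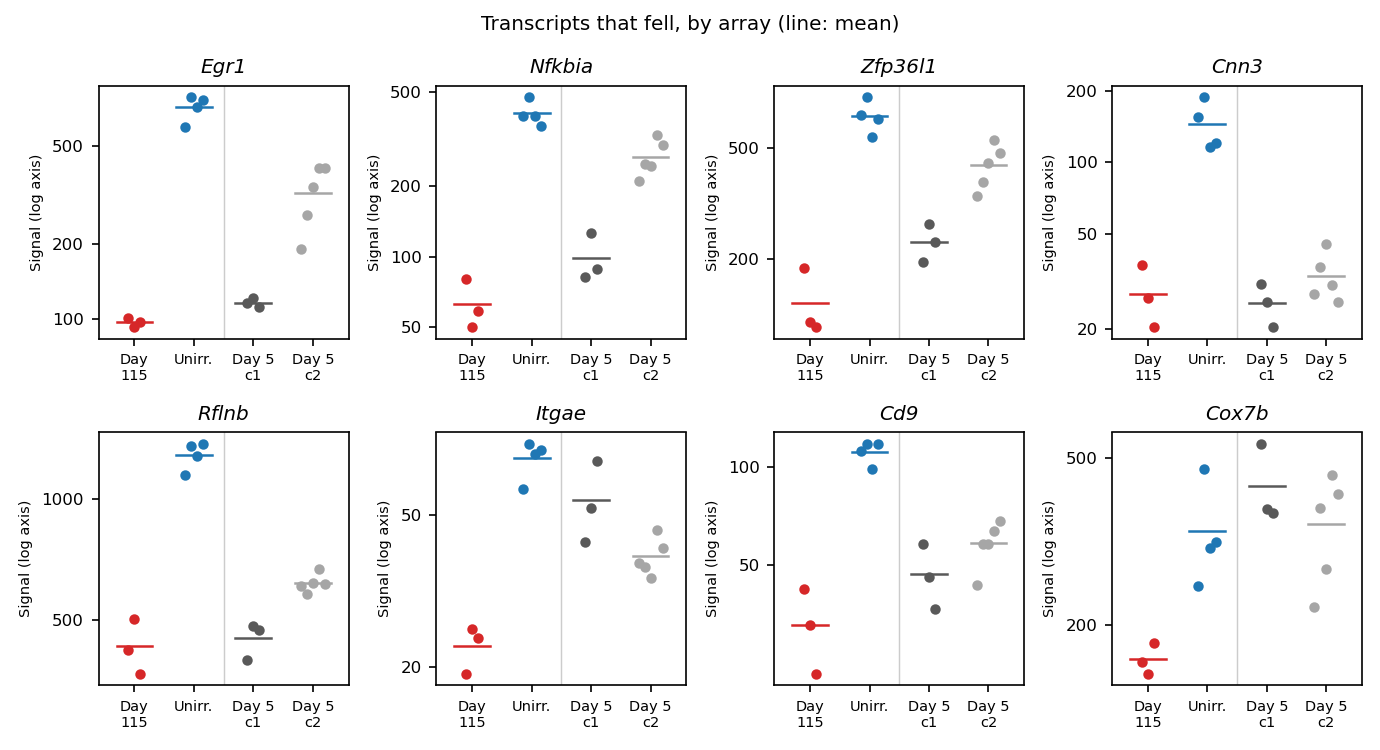
Signal (log axis) of 8 transcripts that fell, in each array: day 115 (red), unirradiated hosts (Unirr., blue), and to the right of the line the day-5 arrays of cluster 1 (c1, dark grey) and cluster 2 (c2, light grey), with a line at each mean. All day-115 arrays are below all unirradiated arrays, as the choice of genes required. Cnn3 is as low in both sets of day-5 arrays, whereas Cox7b at day 5 is within or above the unirradiated range in cluster 1.

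The remaining genes among the 15 largest rises belong to no list above. Aqp9, a channel for water and glycerol that serves memory CD8 T cells, was at 153, 222 and 122 in the day-115 arrays, against 36.8, 30.7, 38.3 and 34.3 in the unirradiated arrays. Its difference was 1.74 ± 0.21 (adjusted p = 7.63e-05, against 1.80 on groups alone) and 1.17 (adjusted p = 0.000775) against day 5 of cluster 1. Ifitm10, a member of the interferon-induced transmembrane family by name, was at 986, 1675 and 1228 in the day-115 arrays, against 229.6, 226, 224 and 237 in the unirradiated arrays. Its difference was 1.60 (adjusted p = 0.000133) with the term, 2.39 (adjusted p = 6.36e-05) on groups alone and 1.35 (adjusted p = 0.0617) with the shift from the day-40 arrays only. Vmp1, a membrane protein of autophagy, was at 717, 709 and 817 in the day-115 arrays, against 318, 531, 239.7 and 293 in the unirradiated arrays. Its difference was 1.47 (adjusted p = 0.00993, against 1.14 on groups alone) and 1.47 (adjusted p = 0.124) under that same shift. Rrp1, a nucleolar protein of ribosome assembly, was at 153, 193 and 138 in the day-115 arrays, against 58.9, 66.3, 67.9 and 68.8 in the unirradiated arrays. Its difference was 1.48 (adjusted p = 0.0101, against 1.11 on groups alone). Drc1, a part of the dynein regulatory complex of cilia, was at 72.9, 75.5 and 64.5 in the day-115 arrays, against 24.4, 23.3, 19.99 and 19.8 in the unirradiated arrays. Its difference was 1.71 (adjusted p = 0.00646, against 1.199 on groups alone). For Drc1, day 115 minus day 5 of cluster 1 was -0.11 (adjusted p = 0.798), and its other tested probe set gave 0.21 (adjusted p = 0.314).

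Among the 57 tested genes of oxidative phosphorylation, 3 fell (Cox7b, Cox6a1 and Atp5g2) and 2 rose (Sdha and Sdhc), beside 1.15% and 3.26% of all genes, with a median of -0.12 with the term and 0.006 on groups alone. The share of rises was near that of all genes. Cox7b, a subunit of cytochrome c oxidase, was at 164, 154 and 181 in the day-115 arrays, against 249, 472, 305 and 316 in the unirradiated arrays. The day-115 arrays were the lowest, with -1.39 ± 0.31 (adjusted p = 0.0164, against -0.91 on groups alone) and -1.27 (adjusted p = 0.00535) against day 5. With the shift from the day-5 arrays only, Cox7b differed by -1.23 (adjusted p = 0.0563). Atp5g2, of the ATP synthase, was at 176, 208 and 169 in the day-115 arrays, against 322, 340.4, 349.7 and 308 in the unirradiated arrays. Its difference was -0.72 (adjusted p = 0.049, against -0.79 on groups alone). Another tested probe set of Atp5g2 gave -0.34 with the term (adjusted p = 0.0767). The call of Atp5g2 was lost without array 1 or 3 of day 115 or array 1, 2, 3 or 4 of the unirradiated hosts (adjusted p up to 0.102, log2 difference -0.81 to -0.67). Cox6a1 differed by -0.85 (adjusted p = 0.0411) with the term, Sdha by 0.87 (adjusted p = 0.0395) and Sdhc by 0.70 (adjusted p = 0.0316), and these 3 did not pass on groups alone.

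Other falls among the 15 largest were in genes of varied function. Cd9, a tetraspanin of the cell surface, was at 42.04, 32.7 and 23.1 in the day-115 arrays, against 112, 117, 98.3 and 118 in the unirradiated arrays. Its difference was -1.22 ± 0.18 (adjusted p = 0.000505, against -1.40 on groups alone). Day 5 of cluster 2 was already below unirradiated hosts, with -0.79 (adjusted p = 0.00178). Peli1, an ubiquitin ligase that restrains T cell receptor signalling, was at 244, 91.5 and 180.1 in the day-115 arrays, against 674, 687, 347 and 356 in the unirradiated arrays. Its difference was -1.45 (adjusted p = 0.0429, against -1.52 on groups alone). The call of Peli1 was lost without array 2 of day 115 or array 1 or 2 of the unirradiated hosts (adjusted p up to 0.118, log2 difference -1.73 to -1.09). Ago2, which carries small RNAs, was at 92.6, 217 and 82.2 in the day-115 arrays, against 254, 270.02, 311 and 419.6 in the unirradiated arrays. Its difference was -1.27 (adjusted p = 0.0458, against -1.26 on groups alone). The call of Ago2 was lost without array 1 or 3 of day 115 or array 1, 3 or 4 of the unirradiated hosts (adjusted p up to 0.0988, log2 difference -1.66 to -1.04). Atxn2, an RNA-binding protein, was at 39.05, 29.4 and 34.2 in the day-115 arrays, against 151, 218, 215 and 217 in the unirradiated arrays. Its difference was -1.11 (adjusted p = 0.0211, against -2.10 on groups alone). The call of Atxn2 was lost without array 2 of day 115 (adjusted p up to 0.0503, log2 difference -1.23 to -1.04). Tmed7, a cargo receptor of the secretory route, was at 160.3 ± 21.8 at day 115 and 588 ± 122 in unirradiated hosts. Its difference was -0.98 (adjusted p = 0.0234, against -1.76 on groups alone). Another tested probe set of Tmed7 gave -1.04 with the term (adjusted p = 0.0542). The call of Tmed7 was lost without array 2 of day 115 or array 4 of the unirradiated hosts (adjusted p up to 0.0573, log2 difference -1.08 to -0.87). Zfp53, a zinc finger gene, was at 35.6 ± 8.24 at day 115 and 102 ± 41.3 in unirradiated hosts. Its difference was -0.94 (adjusted p = 0.0327, against -1.13 on groups alone). The call of Zfp53 was lost without array 2 of day 115 or array 1 of the unirradiated hosts (adjusted p up to 0.0772, log2 difference -1.11 to -0.73).

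Interferon-stimulated genes gave 1 fall and 0 rises among 29 tested, beside 1.15% and 3.26% of all genes, with a median of -0.09. The fall was Isg15, a ubiquitin-like protein, at 94.3, 65.95 and 94.1 in the day-115 arrays, against 133, 142, 165 and 144 in the unirradiated arrays. Its difference was -0.82 (adjusted p = 0.0411, against -0.70 on groups alone) and -0.999 (adjusted p = 0.0041) against day 5. The call of Isg15 was lost without array 2 of day 115 or array 1, 2, 3 or 4 of the unirradiated hosts (adjusted p up to 0.102, log2 difference -0.90 to -0.68). Of 62 tested cell cycle and DNA replication genes, 0 rose and 0 fell by limma with the term, with a median of 0.14, and on groups alone 5 rose and 4 fell, beside 15.9% and 12.7% of all genes, with a median of -0.11. Against day 5 of cluster 1, 12 of them were lower at day 115 and 0 higher, beside 6.19% and 6.54% of all genes. Mki67, a marker of dividing cells, was at 17.4, 14.6 and 19.8 in the day-115 arrays, against 17.4, 32.8, 15.6 and 17.6 in the unirradiated arrays, with day-5 values of 76.6, 32.5 and 62.04 in the cluster 1 arrays of day 5 and 52.99 to 386 in those of cluster 2. Its day-115 values lay under the filter level like most of the unirradiated ones, with 0.56 (adjusted p = 0.546). Top2a, a topoisomerase of dividing cells, was at 35.9, 37.6 and 26.9 in the day-115 arrays, against 34.9, 47.1, 37.6 and 32.03 in the unirradiated arrays, with day-5 values of 160.04, 51.6 and 72.1 in the cluster 1 arrays of day 5 and 150.1 to 635 in those of cluster 2.

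Apoptosis regulators gave 0 rises and 0 falls by limma among 27 tested, with 2 and 4 on groups alone, beside 15.9% and 12.7% of all genes in that model. Bcl2, which protects memory cells from death, was at 438, 277 and 300.2 in the day-115 arrays, against 224, 385, 383 and 456 in the unirradiated arrays in its brightest probe set. The groups overlapped there, with 1.18 (adjusted p = 0.0507) with the term and -0.08 (adjusted p = 0.921) on groups alone, and other tested probe sets gave 0.92 (adjusted p = 0.0425) and 0.27 (adjusted p = 0.306) with the term. NK-type receptors gave 0 rises and 0 falls by limma among 9 tested, with 3 and 2 on groups alone, beside the same shares. Klrd1, the CD94 chain, was at 684, 501 and 564 in the day-115 arrays, against 1252, 1422, 781 and 902 in the unirradiated arrays. Its difference was -0.85 (adjusted p = 0.0269) on groups alone and -0.47 (adjusted p = 0.358) with the term. Klrk1, the receptor NKG2D, was at 61.5, 88.6 and 78.3 in the day-115 arrays, against 47.1, 57.6, 49.5 and 51.5 in the unirradiated arrays. Its difference was 0.44 (adjusted p = 0.00698) on groups alone and 0.28 (adjusted p = 0.166) with the term. Of a panel of 30 CD8 T cell genes, 23 were tested. Ifng, Klrg1 and Cd44 lay under the filter, and Ly6c2, Tbx21 and Tcf7 have no probe set of their own here.

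**Figure D4:**
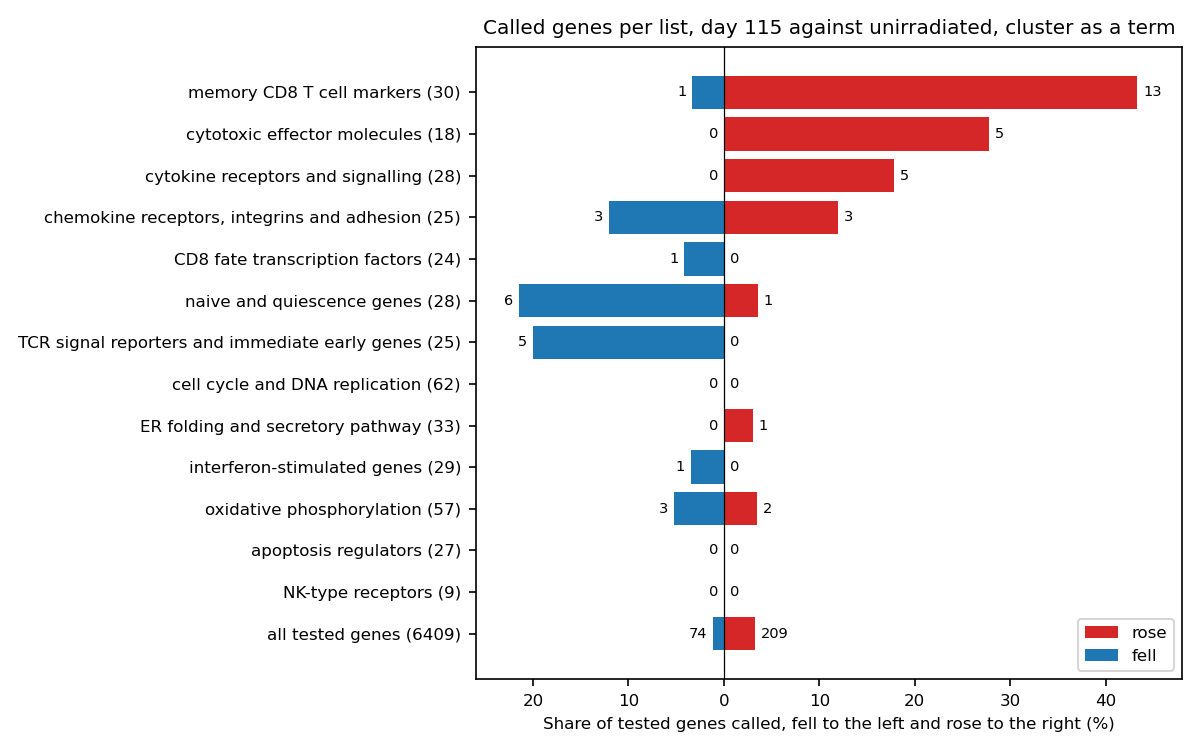
Share of the tested genes of each pathway list that rose (right, red) or fell (left, blue) at day 115 against unirradiated hosts with the array cluster as a term, in percent; list sizes stand in brackets, numbers at the bars are gene counts, and the lowest bar holds all tested genes. Memory markers have 13 rises of 30 genes, and immediate early genes 5 falls of 25.

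A further 1630 genes were called on groups alone and not with the cluster term. Ppp4c, a phosphatase subunit, was at 728, 1544 and 971 in the day-115 arrays, against 166, 163, 197 and 192 in the unirradiated arrays. The groups were far apart, but the day-5 arrays stood at 1843, 774 and 651 in the cluster 1 arrays of day 5 and 188 to 261 in those of cluster 2. The difference was 2.42 (adjusted p = 0.0187) on groups alone and 0.27 (adjusted p = 0.682) with the term. Coro1a, an actin regulator that T cells need for survival, was at 1677, 3122 and 1539 in the day-115 arrays, against 406, 438, 353 and 386 in the unirradiated arrays, with day-5 values of 2079, 2414 and 2226 in the cluster 1 arrays of day 5 and 507 to 673 in those of cluster 2, and 0.42 (adjusted p = 0.31) with the term. Twf2, an actin-capping protein, had 2.27 (adjusted p = 0.00797) on groups alone and 0.57 (adjusted p = 0.205) with the term. Arhgef1 was at 244, 245 and 233 in the day-115 arrays, against 31.2, 27.7, 40.97 and 47.5 in the unirradiated arrays. Its difference was 1.06 (adjusted p = 0.115) and 0.92 (adjusted p = 0.0569) against day 5.

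The largest such falls were Ddit4, Smarca2, Atp13a3, Top2b and Dhx9. Ddit4, a stress-induced inhibitor of mTOR, was at 181, 78.5 and 138 in the day-115 arrays, against 1773, 1450.1, 1580.5 and 2402 in the unirradiated arrays. Its day-5 arrays stood at 489, 243 and 199.9 in the cluster 1 arrays of day 5 and 1179 to 2602 in those of cluster 2. The difference was -3.65 (adjusted p = 0.00587) on groups alone and -1.08 (adjusted p = 0.12) with the term. Day 115 was nevertheless below day 5 within cluster 1, with -1.10 (adjusted p = 0.0413). Dhx9, an RNA helicase, had -3.13 (adjusted p = 0.0196) on groups alone and -0.13 (adjusted p = 0.797) with the term, with a day-5 cluster shift of -3.02 (adjusted p = 1.82e-05). Smarca2 and Atp13a3 had -0.72 (adjusted p = 0.29) and -0.48 (adjusted p = 0.364) with the term, and Top2b -1.26 (adjusted p = 0.0893).

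Transcripts of other cell types moved with the comparison, and their part in the results above was not tested. Of 14 tested genes of CD8 T cell identity, 1 rose (Thy1) and 0 fell, beside 3.26% and 1.15% of all genes, with a median of -0.26 with the term and 0.25 on groups alone. Thy1, a surface glycoprotein of T cells, was at 2295, 1886 and 2124 in the day-115 arrays, against 1108, 1240.2, 845 and 797 in the unirradiated arrays. Its difference was 1.01 (adjusted p = 0.0411, against 1.08 on groups alone). The call of Thy1 was lost without array 1, 2 or 3 of day 115 or array 1, 3 or 4 of the unirradiated hosts (adjusted p up to 0.0919, log2 difference 0.91 to 1.12). Cd8a was at 2266, 2082 and 1890.03 in the day-115 arrays, against 2888, 2418, 2316 and 2510.3 in the unirradiated arrays. Its difference was 0.41 (adjusted p = 0.162). Cd8b1, the other co-receptor chain, was at 3941, 2536 and 4683 in the day-115 arrays, against 2771, 3468, 3049 and 2927 in the unirradiated arrays. Its difference was -0.58 (adjusted p = 0.162). Cd3e, of the receptor complex, was at 243 ± 33.3 at day 115 and 284 ± 6.01 in unirradiated hosts. Its difference was -0.32 (adjusted p = 0.256).

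Some immunoglobulin transcripts rose. Igkv6-23, a kappa light chain variable gene, was at 1144, 369.7 and 376 in the day-115 arrays, against 37.3, 31.8, 51.4 and 42.8 in the unirradiated arrays, and the day-5 arrays stood at 57.5, 135 and 32.3 in the cluster 1 arrays of day 5 and 38.8 to 97.3 in those of cluster 2. Day-115 array 1 was the highest. The difference was 3.16 ± 0.49 (adjusted p = 0.00132, against 3.31 on groups alone). Other light chain genes have nearly the same sequence, so this probe set may read several. Of the 78 immunoglobulin probe sets on the array, 44 were tested. Over these 44, the summed signal was 11726, 8157 and 7318 in the day-115 arrays and 3491, 3240.4, 3434 and 3333 in the unirradiated arrays. Of the 44 tested, 6 rose and 0 fell, beside 3.15% and 1.27% of all probe sets, and their median difference was 0.024. All day-115 arrays were above all unirradiated arrays for 18 of them and below for 2, beside 22.6% and 21.1% of all genes.

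Jchain, which joins secreted antibody into polymers, was at 141, 47.2 and 74.04 in the day-115 arrays, against 31.8, 28.9, 40.4 and 33.5 in the unirradiated arrays, again highest in day-115 array 1, with 1.203 (adjusted p = 0.0104, against 0.96 on groups alone). Ighm, the mu heavy chain, was at 1985, 2241 and 1606 in the day-115 arrays, against 545, 523, 455 and 475 in the unirradiated arrays. Its difference was 0.95 (adjusted p = 0.00725, against 1.92 on groups alone). Its day-5 arrays stood at 1267, 1582 and 1435 in the cluster 1 arrays of day 5 and 634 to 839.8 in those of cluster 2, and day 115 against day 5 of cluster 1 gave 0.43 (adjusted p = 0.0788). Another bright tested probe set of Ighm gave 0.02 with the term (adjusted p = 0.973). Txndc5, a protein disulphide isomerase of the endoplasmic reticulum that plasma cells express strongly, was at 792, 1049.5 and 739 in the day-115 arrays, against 120.00, 142, 97.7 and 87.8 in the unirradiated arrays. Its difference was 1.69 ± 0.28 (adjusted p = 0.00182, against 2.78 on groups alone). It was the sole call among 33 tested genes of endoplasmic reticulum folding and secretion, near the 3.26% of all genes that rose. The median of that list was 0.09 with the term and -0.0085 on groups alone. With the shift from the day-40 arrays only, Ighm differed by 1.00 (adjusted p = 0.135), Jchain by 1.23 (adjusted p = 0.173) and Txndc5 by 1.30 (adjusted p = 0.147).

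In all, 4 of 11 tested plasma cell and immunoglobulin genes rose (Igkv6-23, Txndc5, Jchain and Ighm) and 0 fell, beside 3.26% and 1.15% of all genes. The median difference of the 11 was -0.04 with the term, and 5 of them had a difference above 0. The summed signal of the 11 was 3088 to 4488 at day 115 and 917 to 1076 in unirradiated hosts. At day 115, most of this sum came from Ighm, Txndc5 and Igkv6-23. This sum also differed by cluster at day 5, with 1914 to 2347 in cluster 1 and 1128 to 1325 in cluster 2. The plasma cell marker Sdc1 was at 39.6 ± 5.01 at day 115 and 36.5 ± 1.28 in unirradiated hosts. Its difference was -0.24 (adjusted p = 0.151). Of 20 tested B cell genes, 2 rose (Ighm and Cd37) and 0 fell, beside 3.26% and 1.15% of all genes. On groups alone 7 rose and 0 fell, beside 15.9% and 12.7% of all genes. The summed signal was 3887 to 5962 at day 115 and 1938 to 2345 in unirradiated hosts. At day 5 it was 3191 to 4082 in cluster 1 and 2267 to 2527 in cluster 2, so the B cell sum also differed by cluster. Cd79a, part of the B cell receptor, was at 156 ± 10.7 at day 115 and 136 ± 11.3 in unirradiated hosts. Its difference was -0.19 (adjusted p = 0.426). Ms4a1 (CD20) was at 114 ± 39.5 at day 115 and 92.4 ± 4.07 in unirradiated hosts. Its difference was 0.24 (adjusted p = 0.543). Of the 20 B cell genes, 16 had a difference above 0 with the term, beside 2883 of 6409 genes. H2-Aa was at 431 ± 308 at day 115 and 90.0 ± 49.4 in unirradiated hosts. Cd74 was at 285 ± 161 at day 115 and 80.7 ± 3.66 in unirradiated hosts, and neither was called with the term. Cd37, a tetraspanin of B cells that T cells carry too, was at 401 ± 70.8 at day 115 and 257 ± 44.2 in unirradiated hosts. Its difference was 0.77 (adjusted p = 0.0349, against 0.61 on groups alone). The call of Cd37 was lost without array 1 or 2 of day 115 or array 3 or 4 of the unirradiated hosts (adjusted p up to 0.0833, log2 difference 0.66 to 0.91). The lowest signal in the table was 7.68, so no marker of these lists was at 0 in any array.

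Transcripts of proteins that the liver secretes differed among the day-115 arrays. Albumin (Alb) was at 29.4, 408 and 587 in the day-115 arrays, against 25.5, 24.1, 27.3 and 27.1 in the unirradiated arrays. Arrays 2 and 3 were far above the rest, while array 1 was near the unirradiated values, and the day-5 arrays stood at 23.9, 32.03 and 28.8 in the cluster 1 arrays of day 5 and 22.4 to 25.9 in those of cluster 2. Alb passed the filter on the mean of all arrays only through day-115 arrays 2 and 3. Its place among the tested liver genes is therefore no support separate from its high values there. Mup3, a major urinary protein, was at 38.9, 155 and 146 in the day-115 arrays, against 32.1, 26.8, 26.8 and 30.9 in the unirradiated arrays. Serpina1c, an alpha-1-antitrypsin gene, was at 68.7, 181 and 165 in the day-115 arrays, against 51.5, 52.4, 52.3 and 48.8 in the unirradiated arrays, with the same arrays high. Their near-identical relatives may share these probe sets. Another tested probe set of Mup3 gave 0.79 with the term (adjusted p = 0.104). Apoe, made by liver and by macrophages, was at 112, 495 and 206 in the day-115 arrays, against 39.5, 44.7, 41.6 and 38.7 in the unirradiated arrays. The differences were 2.30 (adjusted p = 0.0458, against 2.43 on groups alone) for Alb, 1.19 (adjusted p = 0.0308, against 1.35 on groups alone) for Mup3, 0.88 (adjusted p = 0.0363, against 1.11 on groups alone) for Serpina1c and 1.44 (adjusted p = 0.0234, against 2.09 on groups alone) for Apoe.

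These 4 were the rises among 10 tested liver genes, beside 3.26% of all genes, with 0 falls and a median of 0.78. The summed signal was 615 to 1905 at day 115 and 445 to 502 in unirradiated hosts. At day 5 the liver sum was 544 to 660 in cluster 1 and 442 to 490 in cluster 2. The call of Alb was lost without array 2 or 3 of day 115 or array 1, 2, 3 or 4 of the unirradiated hosts (adjusted p up to 0.122, log2 difference 1.59 to 3.46), but without day-115 array 1 it was 3.46 (adjusted p = 6.42e-12). The call of Mup3 was lost without array 2 or 3 of day 115 or array 3 or 4 of the unirradiated hosts (adjusted p up to 0.0839, log2 difference 0.91 to 1.73) and that of Serpina1c without array 2 or 3 of day 115 or array 1, 3 or 4 of the unirradiated hosts (adjusted p up to 0.0948, log2 difference 0.66 to 1.27). Apoe differed by 0.91 (adjusted p = 0.022) without day-115 array 2, by 1.41 (adjusted p = 0.0674) with the shift from the day-5 arrays only and by 1.51 (adjusted p = 0.275) with that from the day-40 arrays only. S100a6, Ccl5 and Fasl, like Alb, were lowest in day-115 array 1 and highest in array 3, with every day-115 array above every unirradiated array. In contrast, Il18r1 and Ccr2 were highest in day-115 array 1, and Cxcr3, Tnfrsf1b, Il18rap and Gzmm in array 2. A link with the liver transcripts was not tested.

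**Figure D5:**
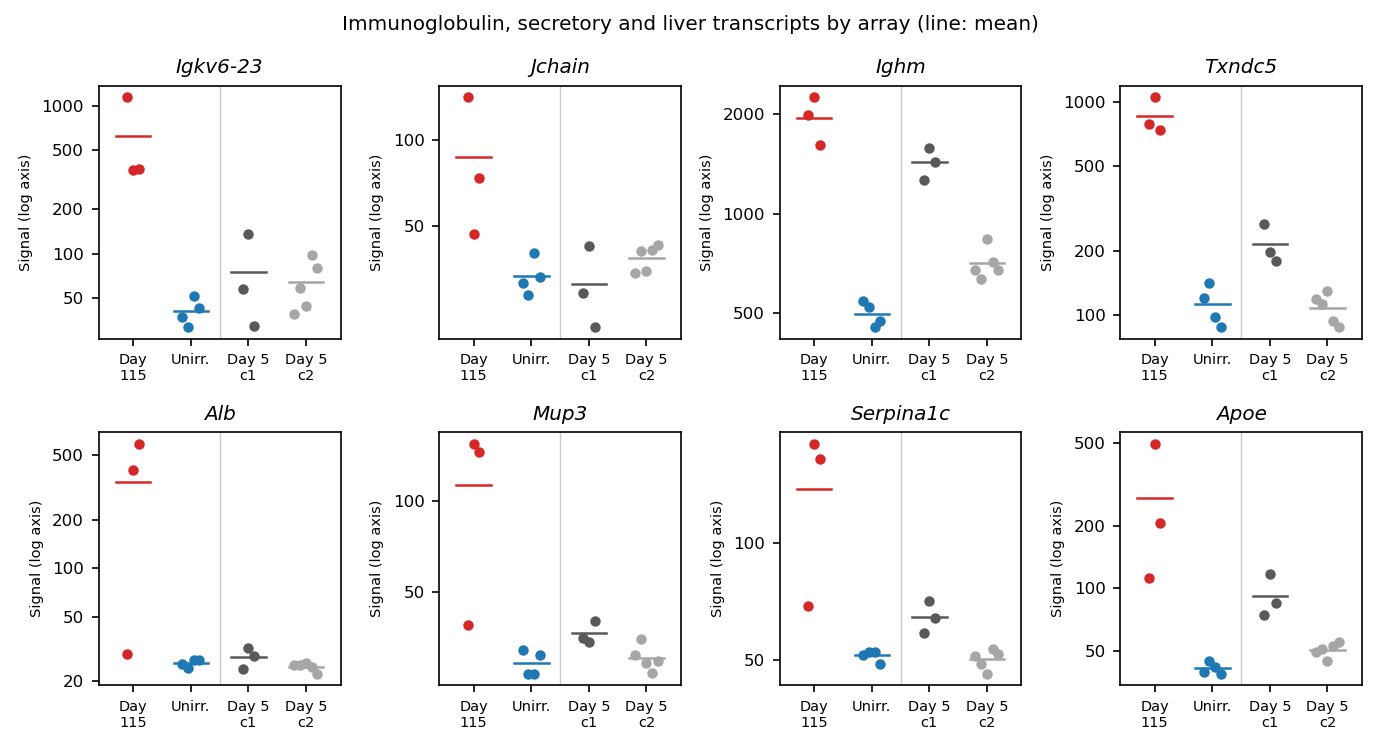
Signal (log axis) of immunoglobulin, secretory and liver transcripts in each array: day 115 (red), unirradiated hosts (Unirr., blue), and to the right of the line the day-5 arrays of cluster 1 (c1, dark grey) and cluster 2 (c2, light grey), with a line at each mean. Igkv6-23 and Jchain are highest in day-115 array 1, whereas Alb, Mup3 and Serpina1c are high in day-115 arrays 2 and 3 and near the other arrays in array 1.

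Other cell types gave few calls, with shares of all genes as above. Among 14 tested myeloid genes Apoe rose and 0 fell, with summed signals of 1897 to 2295 at day 115 and 2990.4 to 3776 in unirradiated hosts. Most of that gap lay in Ctss, at 1015 ± 362 at day 115 and 2459 ± 319 in unirradiated hosts, which was not called with the term. The median difference of the list was -0.13 with the term. The myeloid sum also differed by cluster at day 5, with 2088 to 2213 in cluster 1 and 3367 to 3764 in cluster 2. Among 12 neutrophil genes Lcn2 fell, at 37.5 ± 7.36 at day 115 and 59.9 ± 7.03 in unirradiated hosts. Its difference was -0.61 (adjusted p = 0.0216, against -0.51 on groups alone). The call of Lcn2 was lost without array 3 of the unirradiated hosts (adjusted p up to 0.0528, log2 difference -0.72 to -0.54). Among 8 dendritic cell genes Cd86 fell, at 25.6 ± 1.42 at day 115 and 34.4 ± 1.22 in unirradiated hosts. Its difference was -0.37 (adjusted p = 0.0378, against -0.27 on groups alone). The call of Cd86 was lost without array 2 or 3 of day 115 or array 1, 2, 3 or 4 of the unirradiated hosts (adjusted p up to 0.0767, log2 difference -0.39 to -0.35). By limma with the term, 0 genes were called among 14 erythroid, 7 CD4 and regulatory T cell, 13 stromal and vessel, 5 megakaryocyte and 2 NK cell genes, and on groups alone the count was 2, 1, 1, 0 and 0. The globin Hba-a1 was at 342, 756 and 1138 in the day-115 arrays, against 130.5, 186, 139 and 92.7 in the unirradiated arrays. Its difference was 2.19 (adjusted p = 0.0327) on groups alone and 0.96 (adjusted p = 0.482) with the term. Its signal ranged from 213 to 2337 in the day-5 arrays of cluster 1.

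Many calls depended on which arrays set the size of the cluster shift. Of 50 called genes on which the alternatives were run, 16 lost their call with the shift from the day-5 arrays only (adjusted p 0.0563 to 0.11): Alb, Peli1, Cox7b, Ago2, Atxn2, Actn1, Zfp53, Ctla2b, Itgav, Itga4, Nrip1, Isg15, Cd37, Apoe, Mup3 and Serpina1c. When the day-40 arrays alone set it, 32 lost their call (adjusted p 0.0617 to 0.661): Alb, Gzmm, Txndc5, Ifitm10, Lgals1, Vmp1, Ccr2, Peli1, Ago2, Zfp36l1, Nfkbia, Tob1, Rflnb, Actn1, Tmed7, Zfp53, Ctla2b, Ctsd, Il4ra, Itgav, Itga4, Isg15, Atp5g2, Thy1, Ighm, Cd37, Jchain, Apoe, Lcn2, Cd86, Mup3 and Serpina1c.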

How the data were processed

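The deposited table gave 1 linear signal intensity per probe set and array, from 7.68 to 13242 for 12488 probe sets, and the sources used here do not say how the authors made them. Array medians lay between 49.6 and 53.7, and the deposited intensities were used with no further normalisation. After 66 control probe sets were left out, 10833 of 12422 had 1 gene symbol in the platform annotation used, 396 had several and 1193 had none, and a symbol was used as that annotation gives it. The 8695 probe sets whose mean over all arrays exceeded the 30th percentile (26.4) were tested, for 6409 genes. Each gene was read from its brightest probe set by the mean over all arrays. The number of arrays limits the precision.

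Log2(signal + 16) was fitted with limma 3.58.1 (lmFit, then eBayes with an intensity trend) in R 4.3.3 over all 19 arrays, with the group and the array cluster as terms. Clusters came from average linkage on 1 minus Pearson's r, with the tree divided in 2. P-values were adjusted by Benjamini and Hochberg over all tested probe sets. Alternatives were groups alone, these 7 arrays only, the cluster shift from day-5 or from day-40 arrays only, constants of 1 and 64, no filter and one at the 50th percentile, quantile normalisation, the replicate number as a block, and each array left out. The scripts were tested on simulated data. Deviations of same-numbered day-115 and unirradiated arrays from their group means correlated at 0.062, 0.067 and 0.091, so the numbers were not taken as pairs.

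Named genes were the 15 largest rises and 15 largest falls called in both models with no overlap between the groups, up to 5 called members per list, the 5 largest rises and falls called on groups alone and lost with the term, and a panel of 30 genes, of which 1 is not reported here. Other genes are named only where a list count of called members, or a marker, is spelled out, and these were chosen after their values were seen. The members, the 25 gene lists, the panel and the tests were chosen with earlier results of these data known, so the lists are no independent support.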

Additional observations from a re-analysis of the deposited data

Results flagged for a closer look

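Single arrays stood apart from their group in 10 of 152 groups of values examined, by a gap to the nearest other array that was large against the range of the group, and chance alone marks about 1 in 20 groups. Among the unirradiated arrays, array 2 was high for Lgals1 (332.04), Ctla2b (60.66) and Mki67 (32.79). Unirradiated array 1 was low for Atxn2 (150.97) and for Eomes (125.87), and array 3 was low for Itga4 (39.26). Among the 8 day-5 arrays, array 3 was high for Ctla2b (84.88), Fasl (39.28), Cd86 (50.08) and Gzma (118.05). Of these genes, Lgals1, Ctla2b, Atxn2, Fasl, Itga4 and Cd86 are called in the comparison of day 115 with unirradiated hosts.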

How the results depend on the processing

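The count of 384 called probe sets was 2427 on groups alone, 3224 with only the 7 arrays on groups alone, 234 with the shift from the day-5 arrays and 57 with that from the day-40 arrays. Leaving out 1 array gave 180 to 625. Constants of 1 and 64, no filter, the higher filter and quantile normalisation gave 308 to 412, within 1.5 times of the count. With the replicate number as a block 195 were called, 128 of them among the 384, and no sample was taken as paired. On groups alone, leaving out 1 array gave 1554 (without day-115 array 2) to 2006, with 1611 without day-115 array 3. The comparison of the cluster shift between day 40 and day 5 gave 0 to 1 calls, with 1 without day-5 array 3, day-40 array 1 or day-40 array 2.

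Of the 50 named genes called, 14 passed under every alternative run on them, which were S100a6, Igkv6-23, Cxcr3, Aqp9, Drc1, Il18r1, Rrp1, Cnn3, Egr1, Itgae, Cd9, Fasl, Tnfrsf1b and Il18rap, and 31 passed whichever array was left out. The shift from the day-40 arrays ended 32 of the 50 calls, the replicate block 26, the shift from the day-5 arrays 16, no filter 9 and a constant of 64 3. None of the 50 changed direction. However, each of the 50 had the same call in both models and no overlap between the groups, as the choice of genes required. Their call and direction on groups alone were therefore fixed by that choice and are no test of them. Ahnak, Id3 and a further probe set of Nfkbia, called with the term and not among the 50, turned on groups alone. For Ccl5, the block gave 1.97 (adjusted p = 0.0915). Cnn3, Itgae, Itga4, Cd86, Jchain and Mup3 lie under the 50th percentile filter and have no value there.

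Genes that were not called changed sign as follows, and the cause was not tested. On groups alone, and likewise over the 7 arrays, the difference was -0.28 for Cd8a, 0.24 for Cd8b1, 0.63 for Ccr7, -0.48 for Il7r, 0.083 for Gzma, -0.078 for Bcl2, -0.13 for Mki67, -0.12 for Top2a and -0.036 for Eomes. With the day-40 shift it was -0.041 for Il2rb, -0.062 for Gzmb, -0.11 for Mki67 and -0.15 for Top2a. Il7r was -0.10 with the day-5 shift, -0.0011 with a constant of 64, -0.13 after quantile normalisation and -0.19 with the block. Gzmb was -0.0053 with a constant of 64 and -0.00047 after quantile normalisation. Leaving out 1 array gave -0.25 to 0.35 for Il7r, -0.027 to 0.14 for Gzmb and -0.023 to 0.51 for Ppp4c.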
